A study of Homo sapiens with 6 samples.

Results

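The Hippo pathway genes YAP1, WWTR1, TEAD1, TEAD2, TEAD3, TEAD4, LATS1, LATS2, AMOTL1 and AMOTL2 were examined in SW480 cells with and without added HNF4A. The 10 genes were chosen by name, and each was found on 1 row of a table of 60694 rows. SW480 is an established human colorectal cancer cell line, and HNF4A is a transcription factor of the nuclear receptor family, known from liver and intestine. Of 6 paired-end RNA-seq libraries, 3 came from control cells, titled lenti, and 3 from cells overexpressing HNF4A, titled lenti-HNF4a. All cells were grown in the same medium with fetal bovine serum. The titles read lenti in both groups, but the labels do not say whether the control cells carry an empty lentiviral vector. The labels give neither the promoter that drives HNF4A nor whether a group is 1 clone or a pool.

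The Hippo pathway is a kinase cascade that restrains the coactivators YAP, the product of YAP1, and TAZ, the product of WWTR1. LATS kinases phosphorylate both coactivators, which are then held in the cytoplasm or degraded, and unphosphorylated YAP and TAZ enter the nucleus and act through the DNA-binding TEAD factors. In intestinal epithelium YAP and TAZ are known for their part in regeneration after injury and in tumour growth. Their activity is set largely by phosphorylation and location, which RNA levels do not measure.

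The added gene matched the labels in every library. HNF4A, on chromosome 20, was at 8.81, 6.57 and 7.47 FPKM in control and at 1143, 720.6 and 852 FPKM in HNF4A overexpression (exact two-sided permutation p = 0.1, the smallest that 20 assignments of 3 against 3 libraries allow). FPKM, or fragments per kilobase of transcript and library total, is a level per length and per library, so levels of different genes can be set side by side. The deposited values keep no read counts, so depth is unknown and no counting interval could be given. The libraries summed to between 615594 and 652879 FPKM. Of 10 colorectal epithelium markers 7 were tested, and EPCAM stood at 173 to 182 FPKM over the 6 libraries, whereas KRT20, CDX1 and LGALS4 were under the filter used for testing. VIL1, from 12.1 ± 2.46 to 32.3 ± 4.36 FPKM, and CDH1, from 12.0 ± 0.939 to 17.7 ± 0.554 FPKM, were higher in HNF4A overexpression (SD, n = 3, limma adjusted p = 0.00182 and 0.00522). CDX2 and EPCAM lay higher and KRT18 and KRT19 lower without overlap of the groups, and these 4 did not pass. Such a lack of overlap was seen in 23.8 percent of all tested genes. Of the markers of other cell types, the endothelial gene CDH5 was listed at 0 in all libraries and the leukocyte gene PTPRC reached at most 0.086 FPKM. The 6 fibroblast markers, mostly COL1A1, summed to 2.18 to 2.90 FPKM in control and 3.43 to 3.63 FPKM in HNF4A overexpression, the 4 endothelial markers to 0.184 to 0.239 and 0.268 to 0.411 FPKM, and the 5 leukocyte markers, mostly CD14, to 0.944 to 1.10 and 1.27 to 1.70 FPKM. The part of these markers in the results was not tested. In bulk RNA, fewer cells of a type and less RNA per cell cannot be told apart.

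None of the Hippo genes passed the test between the groups, which was a limma fit on log2(FPKM + 1) over 14106 genes with at least 1 FPKM in at least 3 libraries, with a threshold of 0.05 on the Benjamini-Hochberg adjusted p. Of the 10 genes 9 were tested, all but AMOTL1, and limma called 0 higher and 0 lower, against 4.79 percent of all tested genes called in either direction. At an unadjusted p under 0.05 there were 5 of the 9, beside 18.0 percent of all tested genes. The same 5 were the genes whose groups did not overlap, TEAD3 on the higher side and WWTR1, TEAD1, TEAD2 and AMOTL2 on the lower side. Groups did not overlap in 23.8 percent of all tested genes, with 13.8 percent higher and 10.1 percent lower. The median log2 change of the 9 genes was -0.10 and that of all tested genes 0.01. The 10 genes were chosen with earlier results of these data known, so these counts are a description.

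**Figure D1:**
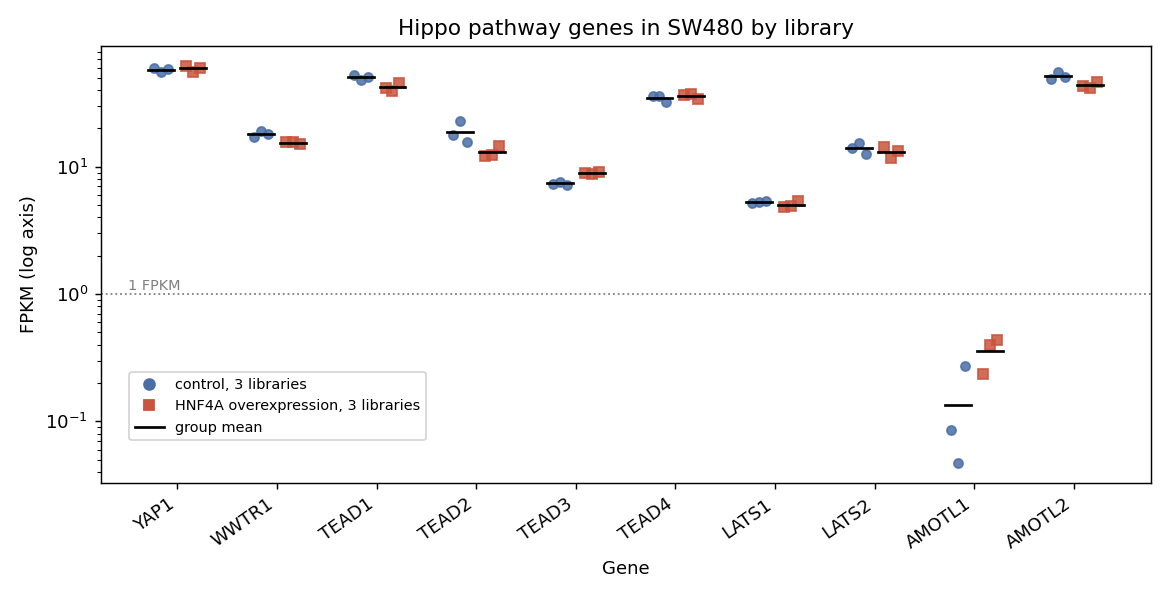
FPKM of the 10 genes on a log axis, with 1 point per library (circles for control, squares for HNF4A overexpression, 3 each) and a bar at each group mean. YAP1 had the highest mean in both groups and AMOTL1 stayed under 1 FPKM in every library. The gaps between groups were small beside the range from AMOTL1 to YAP1. Close neighbours such as TEAD2 and WWTR1 in control differed less from each other than between the groups.

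In control cells YAP1 had the highest mean level of the 10 genes, at 57.5 ± 2.21 FPKM (SD, n = 3). AMOTL2 at 51.7 ± 3.71 FPKM and TEAD1 at 50.3 ± 2.39 FPKM followed, and the libraries of neighbours in this order overlapped, so these levels were not separated by their spread. TEAD4 came next at 34.6 ± 2.13 FPKM. TEAD2 at 18.8 ± 3.78 FPKM and WWTR1 at 18.1 ± 1.04 FPKM overlapped as well. LATS2, TEAD3 and LATS1 stood lower, at 14.04 ± 1.40, 7.41 ± 0.213 and 5.26 ± 0.0992 FPKM, and each of these was apart from its neighbours in every library. In HNF4A overexpression the order was the same except that WWTR1, at 15.5 ± 0.430 FPKM, came before TEAD2, at 13.1 ± 1.30 FPKM. There YAP1 was apart from AMOTL2, while AMOTL2 and TEAD1 overlapped, as did TEAD2 and LATS2.

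The coactivator genes differed from each other in their values. YAP1, which encodes YAP, was at 59.2, 55.0 and 58.4 FPKM in control and at 62.1, 55.2 and 60.2 FPKM in HNF4A overexpression. The groups overlapped, and the log2 change was 0.04 with a 95 percent interval from -0.10 to 0.17 (limma adjusted p = 0.808). WWTR1, which encodes TAZ, was at 17.1, 19.1 and 18.2 FPKM in control and at 15.8, 15.7 and 15.0 FPKM in HNF4A overexpression. All 3 overexpression libraries were below every control library, with means that differed by -14.6 percent. The log2 change was -0.21 with an interval from -0.36 to -0.07, and it did not pass (limma adjusted p = 0.107).

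Set against each other within a library, the WWTR1 to YAP1 ratio of FPKM was 0.288, 0.348 and 0.311 in control and 0.254, 0.284 and 0.249 in HNF4A overexpression. The groups did not overlap, although control replicate 1 and HNF4A overexpression replicate 2 lay close together. The log2 ratio differed by -0.27 between the groups (exact two-sided permutation p = 0.1, the smallest possible). WWTR1 made up 24.0 ± 1.73 percent of the summed level of both genes in control and 20.8 ± 1.19 percent in HNF4A overexpression (SD, n = 3). That sum was 75.7 ± 1.30 FPKM in control and 74.6 ± 3.55 FPKM in HNF4A overexpression, with overlapping groups (exact two-sided permutation p = 0.8).

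The TEAD genes encode the DNA-binding partners of YAP and TAZ, and their values differed in direction. TEAD1 was at 52.7, 47.9 and 50.3 FPKM in control and at 41.9, 39.2 and 45.3 FPKM in HNF4A overexpression. Every overexpression library was below every control library, for a log2 change of -0.25, standard error 0.07 (limma adjusted p = 0.0728). TEAD2, a member of the family known for its role in the embryo, was at 17.7, 22.9 and 15.6 FPKM in control and at 12.2, 12.5 and 14.6 FPKM in HNF4A overexpression. Control replicate 2 stood above the other 2 controls, and the lowest control, 15.6 FPKM, was close to the highest overexpression library. The log2 change of TEAD2, at -0.47 (standard error 0.13, limma adjusted p = 0.0904), was the largest in size among the 9 tested genes, and without control replicate 2 it was -0.33.

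TEAD3 was at 7.38, 7.63 and 7.21 FPKM in control and at 8.98, 8.82 and 9.16 FPKM in HNF4A overexpression. All overexpression libraries were above all controls, the spread within each group was narrow, and the means differed by 21.3 percent. The log2 change of 0.25, standard error 0.06, did not pass (limma adjusted p = 0.0735). TEAD4 was at 35.9, 35.8 and 32.2 FPKM in control and at 36.7, 37.1 and 33.8 FPKM in HNF4A overexpression. These groups overlapped, and the log2 change of 0.05 had an interval from -0.10 to 0.19 (limma adjusted p = 0.773).

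**Figure D2:**
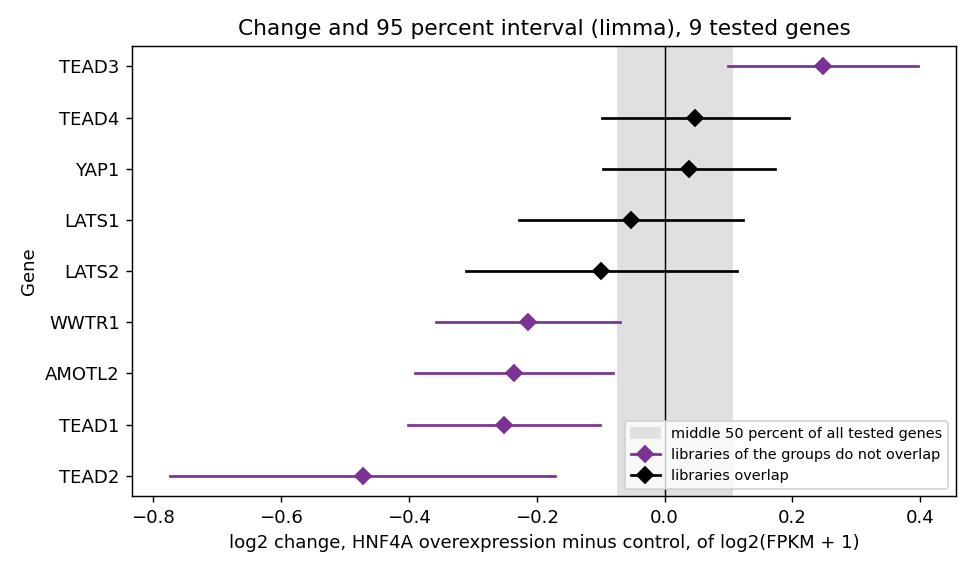
Log2 change (HNF4A overexpression minus control, of log2(FPKM + 1)) of the 9 tested genes as diamonds with 95 percent limma intervals, coloured by whether the libraries of the groups overlap. The grey band holds the middle 50 percent of all 14106 tested genes, and outside it lie the 5 genes with no overlap, TEAD3 on the right and 4 on the left, and also LATS2, whose groups overlap, on the left.

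Taken as shares of the summed TEAD level in each library, TEAD3 differed most clearly relative to its spread. Its share was 6.49, 6.68 and 6.84 percent in control and 8.999, 9.04 and 8.90 percent in HNF4A overexpression. TEAD4 had 31.2 ± 0.544 percent in control and 35.9 ± 2.69 percent in HNF4A overexpression, and TEAD2 had 16.8 ± 2.84 and 13.1 ± 0.996 percent (SD, n = 3). The groups did not overlap for these 3 shares, each with an exact two-sided permutation p of 0.1, the smallest possible and not adjusted for the 4 shares compared. Without control replicate 2 the difference in the TEAD2 share went from -3.74 to -2.11 percentage points. TEAD1 remained the most abundant member in every library, with 45.3 ± 3.07 and 42.1 ± 1.95 percent, and its groups overlapped through control replicate 2, at 41.9 percent (exact two-sided permutation p = 0.3). The difference in the TEAD1 share, -3.27 percentage points, was -4.99 without control replicate 2 and -2.05 without control replicate 3. The summed TEAD level was 111 ± 5.01 FPKM in control and 100.1 ± 2.68 FPKM in HNF4A overexpression, again without overlap (exact two-sided permutation p = 0.1). The shares within a library have a fixed sum, so they are not separate results. In FPKM the groups of TEAD4 overlapped (limma adjusted p = 0.773).

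**Figure D3:**
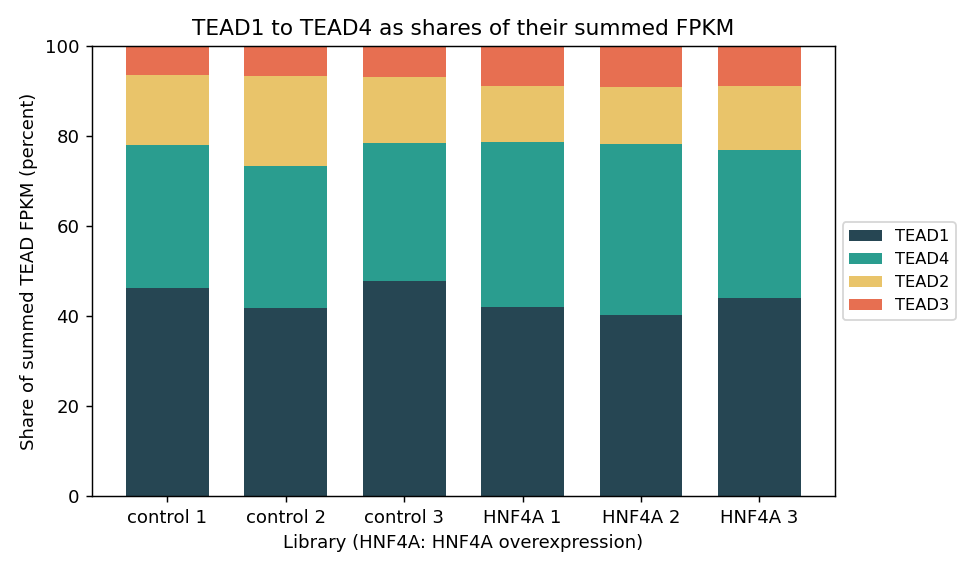
Shares of TEAD1, TEAD4, TEAD2 and TEAD3 in the summed TEAD FPKM, in percent, stacked for each of the 6 libraries. The top segment, TEAD3, is between 6.49 and 6.84 percent in the controls and between 8.90 and 9.04 percent in the HNF4A overexpression libraries.

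The LATS genes, which encode the kinases that phosphorylate YAP and TAZ, showed overlapping groups. LATS1 was at 5.17, 5.24 and 5.37 FPKM in control and at 4.84, 4.90 and 5.38 FPKM in HNF4A overexpression (log2 change -0.05, interval from -0.23 to 0.12, limma adjusted p = 0.799). LATS2, itself a known target gene of YAP and TAZ, was at 14.03, 15.4 and 12.7 FPKM in control and at 14.2, 11.7 and 13.2 FPKM in HNF4A overexpression (log2 change -0.10, interval from -0.31 to 0.11, limma adjusted p = 0.653). In both genes the highest overexpression library lay within or above the control range.

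The angiomotin-like genes encode junction proteins that bind YAP and keep it out of the nucleus. AMOTL2, also a known target gene of YAP and TAZ, was at 49.0, 56.0 and 50.3 FPKM in control and at 43.1, 41.5 and 46.6 FPKM in HNF4A overexpression. All overexpression libraries were below all controls, with means that differed by -15.4 percent. The log2 change of -0.24, standard error 0.07, did not pass (limma adjusted p = 0.0977). AMOTL1 was at 0.0855, 0.0473 and 0.270 FPKM in control and at 0.234, 0.395 and 0.439 FPKM in HNF4A overexpression, too low to be tested. Its highest control lay above its lowest overexpression library, and in a fit without the filter its log2 change was 0.26 (limma adjusted p = 0.374). AMOTL2 was thus the form that SW480 expressed at a high level, and the related gene AMOT was at 3.93 ± 0.426 FPKM in control and 3.17 ± 0.178 FPKM in HNF4A overexpression (SD, n = 3, limma adjusted p = 0.231).

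The other filters, row summing, variance prior and replicate block leave the log2 change of the 9 tested genes as it is, and only the adjusted p can differ. Across the other pseudocount, the scalings and the left-out libraries, which can move it, none changed sign except TEAD4. TEAD1 passed when replicate number was a block (limma adjusted p = 0.0376) and in none of the other 13 alternatives, where its adjusted p ranged up to 0.197. WWTR1, TEAD2, TEAD3 and AMOTL2 passed in 0 of 14 alternatives, with limma adjusted p-values of 0.0746 to 0.280, 0.0582 to 0.293, 0.0597 to 0.210 and 0.0626 to 0.251.

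**Figure D4:**
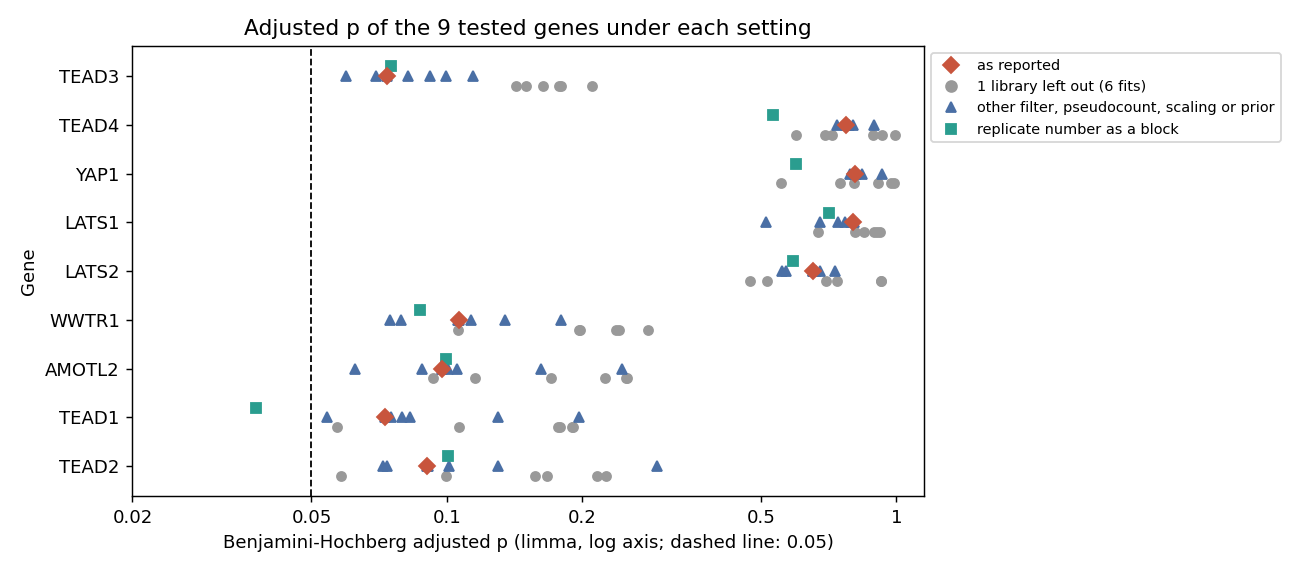
Limma adjusted p of the 9 tested genes on a log axis, as reported (diamonds), with 1 library left out (circles), with another filter, pseudocount, scaling, row summing or variance prior (triangles) and blocked by replicate number (squares). The dashed line is at 0.05, and the only point left of it is TEAD1 with the block, at 0.0376.

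The 10 genes lie apart from each other in the genome (GENCODE 29, GRCh38, the build that the submitters' processing notes name as hg38). YAP1 lies on chromosome 11 from 102110461 to 102233423, TEAD1 on chromosome 11 from 12674591 to 12944483 and AMOTL1 on chromosome 11 from 94706431 to 94876753, all on the plus strand. WWTR1 lies on chromosome 3 from 149517235 to 149736714 and AMOTL2 on chromosome 3 from 134355874 to 134375479, both on the minus strand. TEAD3 lies on chromosome 6 from 35473597 to 35497076 and LATS1 on chromosome 6 from 149658153 to 149718256, both on the minus strand. TEAD2 lies on chromosome 19 from 49340595 to 49362457 and LATS2 on chromosome 13 from 20973032 to 21061547, both on the minus strand, and TEAD4 on chromosome 12 from 2959330 to 3040673 on the plus strand.

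In 9 of the 10 genes, the TEAD paralogs among them, no stretch of 100 bases occurred in a transcript of another gene. Transcripts were read in the sense direction only, and reverse complements were not searched. In AMOTL2 1.37 percent of such stretches did, shared with the pseudogene RPL39P5. Whether the counting used strand is not stated, so fragments of overlapping antisense genes cannot be separated. The antisense gene AP000942.2 shares 628 exon bases with YAP1 and had 37.4 FPKM in control and 40.3 FPKM in HNF4A overexpression. WWTR1-AS1 shares 795 exon bases with WWTR1 and had 4.257 and 4.002 FPKM, and CD37 shares 319 exon bases with TEAD2 and had 0.634 and 0.625 FPKM (means of 3 libraries). The antisense gene AP002383.2 shares 496 exon bases with AMOTL1 and had 0.05615 and 0.2242 FPKM. Both genes had their higher mean in HNF4A overexpression, but both were under the filter and the groups of AMOTL1 overlapped. AL358852.1 shares 408 exon bases with LATS1 and had 0.3284 and 0.5307 FPKM.

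Beyond the 10 genes, 92 other genes of the pathway were listed in 5 groups, of which 82 were tested. Among these, 1 was higher and 4 were lower by limma, and the background for each direction is 3.4 percent and 1.39 percent of all tested genes. These are MINK1 on the higher side and SAV1, FOSL1, MYOF and FOXF2 on the lower side. Of these calls, that of FOSL1 held whichever of the 6 libraries was left out. SAV1 and FOXF2 passed in 0 of the 6, MINK1 only without control replicate 1 (limma adjusted p = 0.0354) and MYOF only without HNF4A overexpression replicate 3 (limma adjusted p = 0.0475).

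Upstream of LATS, the kinases and adaptors comprised 22 genes, of which 21 were tested, 1 rose, 1 fell and 19 did not pass (median log2 change 0.01). SAV1, the scaffold that brings the MST kinases to LATS, fell from 20.9, 20.9 and 22.8 FPKM to 17.5, 16.4 and 17.5 FPKM (log2 change -0.31, limma adjusted p = 0.0270). It stands on 2 rows of the table, of which the higher was used, and shares 840 exon bases with ATL1 on the other strand. MINK1, a kinase of the MAP4K group that can act on LATS, rose from 34.9, 29.9 and 32.9 FPKM to 40.8, 41.1 and 39.0 FPKM (log2 change 0.30, limma adjusted p = 0.0388). Its call was lost under both other scalings, with limma adjusted p-values of 0.0588 with median-ratio scaling and 0.0506 with quantile normalization. The MST kinase genes STK3 and STK4 were at 5.43 ± 0.529 and 27.0 ± 1.57 FPKM in control and at 5.04 ± 0.515 and 24.3 ± 0.906 FPKM in HNF4A overexpression (SD, n = 3, limma adjusted p = 0.707 and 0.269). NF2, which encodes the tumour suppressor merlin, was at 11.8 ± 0.539 and 10.8 ± 0.444 FPKM (SD, n = 3, limma adjusted p = 0.423).

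Among 18 polarity and junction regulators 13 were tested, and 1 had an unadjusted limma p under 0.05, beside 18.0 percent of all tested genes. Limma called 0 of these regulators (median log2 change -0.01). Among the most abundant was DLG1, a polarity scaffold, at 59.8 ± 5.37 FPKM in control and 63.3 ± 3.41 FPKM in HNF4A overexpression (SD, n = 3, limma adjusted p = 0.621). The 21 genes that inhibit the kinases or hold and degrade YAP and TAZ were all tested. An unadjusted limma p under 0.05 was found for 6, beside the same 18.0 percent, and limma called 0 of the 21. Their log2 changes were negative for 17 and positive for 4 (median -0.04). The most abundant of these were the 14-3-3 genes YWHAZ, at 457 ± 4.81 and 425 ± 11.0 FPKM, and YWHAE, at 402 ± 5.50 and 385 ± 6.25 FPKM (SD, n = 3 each, limma adjusted p = 0.239 and 0.512). AJUBA, a LIM protein that inhibits LATS, had the largest log2 change of this group in size, 0.34, with 24.5 ± 3.14 against 31.0 ± 0.507 FPKM, and was picked after its values were seen (SD, n = 3, limma adjusted p = 0.0652).

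Of 12 nuclear partners of YAP, TAZ and TEAD 9 were tested, 0 rose, 1 fell and 8 did not pass (median log2 change 0.01). FOSL1, an AP-1 subunit that shares many genomic sites with TEAD factors, fell from 109.9, 96.4 and 98.8 FPKM to 75.4, 74.8 and 74.3 FPKM (log2 change -0.44, standard error 0.06, limma adjusted p = 0.00451). The overexpression libraries were all far below the controls and close to each other. VGLL4, which competes with YAP for TEAD, was at 12.5 ± 1.09 and 11.9 ± 1.47 FPKM (SD, n = 3, limma adjusted p = 0.792). VGLL1 and VGLL2 were listed at 0 in all libraries.

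**Figure D5:**
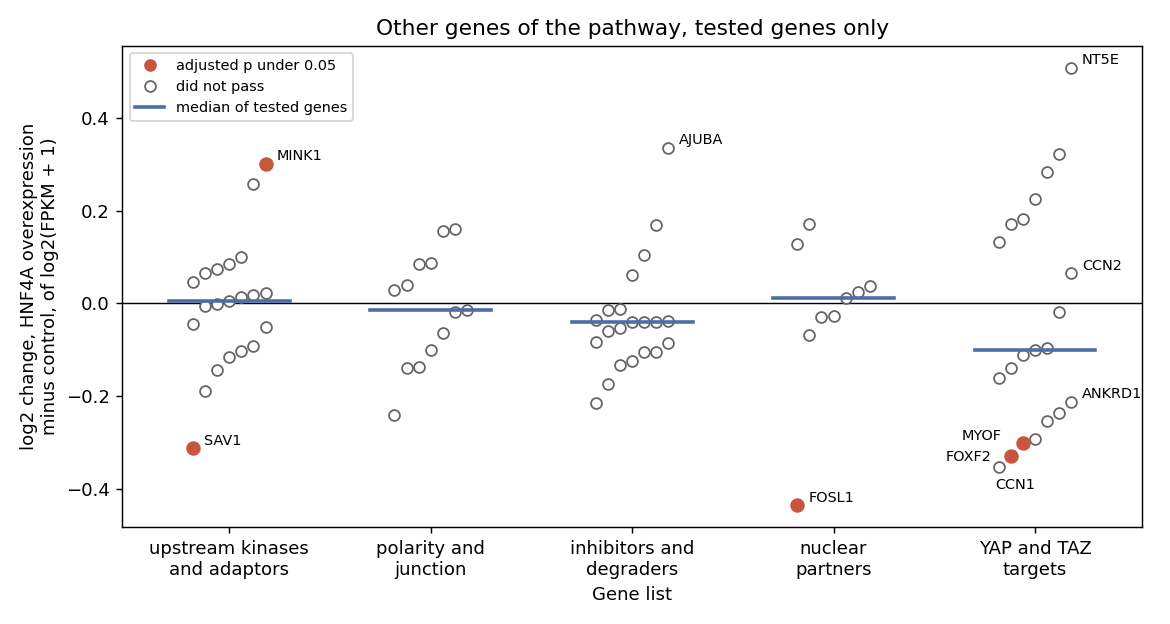
Log2 change (HNF4A overexpression minus control, of log2(FPKM + 1)) of the tested genes of 5 pathway lists, 1 circle per gene, filled where the limma adjusted p was under 0.05, with a line at each list's median. MINK1 is the filled circle above 0, and SAV1, FOSL1, MYOF and FOXF2 are the 4 below 0. In the target list genes lie on both sides, with NT5E at the top and CCN1 at the bottom.

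The published 22-gene signature of YAP and TAZ activity across cancers, which holds AMOTL2 and LATS2, comprised 21 tested genes. Of them 0 rose and 2 fell, and 19 did not pass (13 of 21 negative, median log2 change -0.10 beside 0.01 over all tested genes). MYOF, a membrane repair protein of the ferlin family, fell from 27.6, 25.7 and 25.9 FPKM to 20.3, 21.4 and 21.98 FPKM (log2 change -0.30, limma adjusted p = 0.0252). FOXF2, a forkhead transcription factor, fell from 6.43, 6.81 and 6.28 FPKM to 5.18, 5.03 and 4.74 FPKM (log2 change -0.33, limma adjusted p = 0.0478). The call of FOXF2 was lost with a filter of 0.5 FPKM (limma adjusted p = 0.0544). The groups did not overlap in 10 of the 21 genes, these 2 included, with 7 lower and 3 higher, beside 10.1 and 13.8 percent of all tested genes.

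The matricellular genes CCN1 and CCN2, the most used readouts of YAP and TAZ, had different values. CCN1 was at 37.9, 42.4 and 32.6 FPKM in control and at 29.1, 30.1 and 28.2 FPKM in HNF4A overexpression (log2 change -0.35, limma adjusted p = 0.0654). All overexpression libraries were below all controls. Of the 6 fits with a library left out CCN1 passed in 1, without control replicate 3, its lowest control (limma adjusted p = 0.0208). Over all 14 alternatives it passed in 2, and its limma adjusted p ranged up to 0.226. CCN2 was at 6.14, 7.86 and 6.34 FPKM in control and at 6.95, 7.09 and 7.27 FPKM in HNF4A overexpression, with overlapping groups (log2 change 0.07, interval from -0.15 to 0.28, limma adjusted p = 0.799). ANKRD1, a nuclear ankyrin-repeat protein, was at 86.1, 131.6 and 99.4 FPKM in control and at 88.3, 95.1 and 85.9 FPKM in HNF4A overexpression, with overlapping groups (limma adjusted p = 0.475). The receptor tyrosine kinase gene AXL was at 44.0 ± 3.85 and 40.6 ± 2.42 FPKM (SD, n = 3, limma adjusted p = 0.504), and NT5E, which encodes an ectonucleotidase and was picked after its values were seen, at 14.3 ± 2.33 and 20.8 ± 3.16 FPKM (SD, n = 3, limma adjusted p = 0.0744).

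Promoters are printed for genes of the loop between TEAD and its targets, because TEAD factors bind GGAATG or its reverse complement CATTCC. RefSeq windows (GRCh38.p14), 250 bases before to 50 bases after an annotated start, were found for 8 of the 10 genes, and TEAD1 and TEAD4 had no entry. The target gene CCN1 had no entry either, so its promoter was not searched. The window of CCN2 held 3 matches, that of ANKRD1 2, and those of FOXF2, AMOTL2, LATS2 and YAP1 1 each. Matches were also found for the target genes PTPN14, AXL, NUAK2 and TGFB2, whose windows are not shown. In AMOTL2 the match was in 1 of 2 annotated windows, the one shown. Sequences run 5′ to 3′ on the gene's strand, with capitals at the TEAD motif.
CCN2 (chr6:131951323-131951622, minus strand): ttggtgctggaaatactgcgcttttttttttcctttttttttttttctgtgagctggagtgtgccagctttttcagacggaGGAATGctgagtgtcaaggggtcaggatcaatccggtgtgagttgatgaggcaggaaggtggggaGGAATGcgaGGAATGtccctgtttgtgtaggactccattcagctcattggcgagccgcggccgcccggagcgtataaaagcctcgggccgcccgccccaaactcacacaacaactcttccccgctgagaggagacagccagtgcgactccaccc
ANKRD1 (chr10:90921038-90921337, minus strand): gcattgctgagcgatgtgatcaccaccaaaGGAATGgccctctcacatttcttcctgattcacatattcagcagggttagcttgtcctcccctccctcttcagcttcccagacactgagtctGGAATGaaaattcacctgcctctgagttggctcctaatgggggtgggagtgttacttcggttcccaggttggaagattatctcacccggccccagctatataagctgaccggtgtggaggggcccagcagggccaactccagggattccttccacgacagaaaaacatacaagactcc
FOXF2 (chr6:1389326-1389625, plus strand): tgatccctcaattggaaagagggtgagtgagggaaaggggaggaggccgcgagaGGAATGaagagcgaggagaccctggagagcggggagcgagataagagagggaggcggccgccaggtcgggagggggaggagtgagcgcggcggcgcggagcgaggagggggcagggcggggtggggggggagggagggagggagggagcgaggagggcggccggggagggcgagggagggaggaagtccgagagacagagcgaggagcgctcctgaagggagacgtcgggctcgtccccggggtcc
AMOTL2 (chr3:134374398-134374697, minus strand): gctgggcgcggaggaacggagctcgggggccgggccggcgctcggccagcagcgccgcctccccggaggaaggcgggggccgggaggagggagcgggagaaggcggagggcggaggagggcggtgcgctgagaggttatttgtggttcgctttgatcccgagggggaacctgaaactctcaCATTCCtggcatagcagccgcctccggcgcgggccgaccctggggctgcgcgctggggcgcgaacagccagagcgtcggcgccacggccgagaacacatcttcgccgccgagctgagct
YAP1 (chr11:102110197-102110496, plus strand): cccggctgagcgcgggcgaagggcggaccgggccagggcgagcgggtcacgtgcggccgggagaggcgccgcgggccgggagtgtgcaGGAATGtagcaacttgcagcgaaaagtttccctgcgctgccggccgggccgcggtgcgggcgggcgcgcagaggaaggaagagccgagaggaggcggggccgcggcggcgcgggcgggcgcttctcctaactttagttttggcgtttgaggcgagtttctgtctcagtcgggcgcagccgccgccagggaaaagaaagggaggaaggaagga

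The TEAD motif was found on either strand in the windows of 3 of 8 Hippo genes and 9 of 17 target genes with an entry, against 16.7 percent of the 27305 genes in the table and 4928 of its 35116 windows. AMOTL2 and LATS2 are counted both as Hippo genes and as target genes. Of the 9 tested target genes with a match 7 had a negative log2 change, beside 13 of all 21 tested target genes. FOXF2 was the 1 of the 9 that passed. CCN2, with matches at positions -169, -104 and -95 from the start, had a log2 change of 0.07, and MYOF, which fell, had no match in its window. The HNF4 motif CAAAGTCCA, with reverse complement TGGACTTTG, was found for 0 of the 8 Hippo genes with an entry and 0.472 percent of all genes in the table. The AP-1 motif TGANTCA was found for 1 of the 8, LATS1, in 1 of its 2 windows, and for 9.37 percent of all genes in the table. No binding data were used, so the matches describe letters only.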

How the data were processed

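RNA-seq of 3 control and 3 HNF4A overexpression libraries of SW480 was analysed from 1 table, grouped by the sample titles. The authors deposited FPKM values for 60694 rows named by gene symbol, beside group means, a fold change and an unadjusted p, which were not used. Cufflinks, TopHat, TopHat2, Bowtie, Bowtie2, FastQC and the build hg38 are listed in the submitters' processing notes without versions or roles. FPKM depends on the library total and on assumed transcript lengths. Of rows that share a name the one with the highest mean was kept, which left 59332 names. In R 4.3.3, limma 3.58.1 (lmFit and eBayes with trend, group as the only term) was fitted to log2(FPKM + 1) for the 14106 genes with at least 1 FPKM in at least 3 libraries. The pseudocount of 1 understates changes of low genes. Adjusted p-values are Benjamini-Hochberg over all tested genes. The test was checked on simulated data. Shares and ratios were compared by exact permutation in scipy 1.17.1. The labels call the replicates biological, and p-values measure the spread between these samples only. The members and lists were chosen with earlier results of these data known. Text names the 10 genes, HNF4A, 9 further pathway genes, every list gene that passed and, for lists with none, the 2 most abundant, of which 1 is not reported here. Patterns of likeness to other genes were to be named only for members that passed, and none did. All 128 listed genes were found, PALS1 as MPP5.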

Additional observations from a re-analysis of the deposited data

How the results depend on the processing

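Fits differed by filter, pseudocount, scaling, row summing, variance prior, replicate block and left-out library. Of 456 alternative values, 392 kept their direction and side of the threshold, moved by less than the spread or, as counts, stayed within 1.5 times the reported count. Filter, variance prior and block cannot move a log2 change, so direction was fixed in those fits and only the adjusted p could differ. With a filter of 0.5 FPKM 3 pathway genes were lower, since FOXF2 was lost. TEAD4 reversed only without control replicate 3 (log2 change -0.0025, with a range of -0.0025 to 0.0891 over the left-out libraries), and its cause was not tested. Without a filter 201 genes were higher and 49 lower, of which 0 and 1 were listed pathway genes. This fit tests more genes and also estimates its variance prior from them, and the cause of the lower counts was not tested. Leaving out 1 library gave 274 to 313 higher and 87 to 161 lower genes, and 0 to 1 higher and 1 to 3 lower pathway genes; these fits hold fewer samples. Pathway genes called higher were 0 with median-ratio scaling, quantile normalization or no trend, where the cause was not tested. The median log2 change of all tested genes stayed within 0.0161 of 0 in every fit.

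Same-numbered libraries correlated at 0.139, 0.091 and 0.150 in their deviations from the group means, and differently numbered ones at -0.124 to -0.013. Every library thus correlated best with its own number. Whether the numbers pair the samples was not settled, and the reported fit does not use them. With the replicate block 638 genes were higher and 399 lower, with 4 higher and 6 lower among pathway genes, and TEAD1 was the 1 Hippo gene called (log2 change -0.25, limma adjusted p = 0.0376). CCN1 passed as well (limma adjusted p = 0.0290). The missing read counts limit what can be said of low genes such as AMOTL1.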

Other observations

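Of the 92 other pathway genes, 10 were under the filter and are given as values only. The protocadherin gene DCHS1, a ligand of FAT4, was at 0.329, 0.383 and 0.293 FPKM in control and at 0.599, 0.613 and 0.494 FPKM in HNF4A overexpression, without overlap and without a test. FAT4 was listed at 0 in all libraries except HNF4A overexpression replicate 2, at 0.0054 FPKM, and FAT3 at 0 in all 6. MAP4K1, a kinase of blood cells, was at 0.429, 0.638 and 0.701 FPKM in control and at 0.439, 0.440 and 0.459 FPKM in HNF4A overexpression, with overlapping groups.
The vestigial-like genes VGLL1 and VGLL2 were listed at 0 in all libraries, and VGLL3 ranged from 0.0256 to 0.333 FPKM. FAT2 ranged from 0.108 to 0.166 FPKM, DCHS2 reached at most 0.0524 FPKM and the target gene RBMS3 at most 0.0214 FPKM.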
